A study of Mus musculus with 12 samples.

Results

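The genes described here build, load and regulate the major histocompatibility complex (MHC) molecules that display peptides to T cells. They are the protein-coding genes whose symbol starts with H2-, the mouse MHC prefix, together with B2m, Tap1, Tap2, Tapbp, Nlrc5, Ciita, Cd74, Erap1, Psmb8, Psmb9, Psmb10, Psme1 and Psme2. This gave 47 genes of the 54532 in the deposited table. By symbol, 2 are classical class I genes, 22 nonclassical class I genes, 11 genes of the class II pathway, 5 genes of peptide supply and loading, 5 genes of the immunoproteasome and its activator, 1 the class I regulator Nlrc5, and 1, H2-Ke6, an enzyme gene named after the region in which it lies.

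RNA was sequenced from colonoids, organoid cultures of mouse colonic epithelium, in 12 libraries that form 4 groups of 3. Control colonoids came from Hmox1 fl/fl mice on a C57BL/6 background, which carry loxP-flanked alleles of the heme oxygenase gene Hmox1 and no Cre. Colonoids labelled KO came from such mice that also carry the Vil1-Cre transgene, which drives Cre in the epithelium of villi and crypts. Both were grown in L-WRN conditioned medium and received 200 µM hemin or vehicle for 24 h. The mice were young adults. The genotype label of labelled KO hemin replicate 3 is written differently from the other 5 labelled KO libraries, naming fl/fl alleles with the Cre. The number of mice or lines behind a group is not given in the sources used here, so p-values measure only the spread between these samples, which may be technical.

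Class I molecules sit on nearly all nucleated cells. The immunoproteasome cuts proteins to peptides, the Tap transporter carries these into the endoplasmic reticulum, Erap1 trims them and tapasin helps to load them onto a heavy chain paired with B2m. Class II molecules are made mainly by professional antigen presenting cells, are switched on by Ciita and receive peptide in endosomes with the help of Cd74 and H2-DM, and intestinal epithelium can make them under interferon gamma.

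Levels are FPKM, fragments scaled by gene length, library depth and a further factor between libraries that the deposited values carry. The whole fragments behind each value were recovered, and the libraries held from 11648801 to 25101868 of them. Differences were tested with limma on log2(FPKM + 1) over the 12740 genes that reached an FPKM of 1 in at least 3 libraries. A gene is called at a Benjamini-Hochberg adjusted p under 0.05 with a log2 fold change beyond 1 in either direction. Every log2 fold change below is on this scale, which understates changes of genes near or under an FPKM of 1.

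Hmox1 (ENSMUSG00000005413), the gene that the Cre should delete, was read first. It measured 7.62, 6.85 and 7.90 FPKM in control vehicle, 503, 483 and 382 in control hemin, 3.14, 2.11 and 2.31 in labelled KO vehicle, and 1279, 1393 and 1271 in labelled KO hemin. All labelled KO libraries lay below the control libraries under vehicle and above them under hemin. The log2 difference between labelled KO and control was -1.27 (limma adjusted p = 1.2e-05) under vehicle and 1.53 (adjusted p = 3.3e-06) under hemin. The hemin values go against the KO label, although gene-level FPKM does not tell which exons were read. The genotype is therefore called labelled KO throughout, and each direction drawn from it rests on the label.

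The tissue label was checked against markers. All 9 epithelial markers passed the filter, with summed levels of 8981 ± 521 FPKM in control vehicle, 9274 ± 1057 in control hemin, 5992 ± 23.6 in labelled KO vehicle and 8454 ± 683 in labelled KO hemin (SD, n = 3 each). Krt8 was the most abundant of them. None of the 11 leukocyte markers passed the filter. Their sum was 0.605, 0.0742, 0.324 and 0.132 FPKM in the same order of groups, Itgam was the most abundant at no more than 43 fragments, Ptprc had at most 6 fragments in a library, and Itgax was at 0 in all 12. None of the 5 fibroblast, 3 endothelial or 3 tuft cell markers passed either. The cells that make most class II in tissue were thus at or near 0 by their defining markers.

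Epithelial subtypes did differ between the groups. The 5 enteroendocrine markers summed to 35.6, 29.3, 554 and 435 FPKM in control vehicle, control hemin, labelled KO vehicle and labelled KO hemin. The 5 goblet cell markers summed to 1449, 1146, 1405 and 431, the 5 colonocyte markers to 2689, 5506, 1920 and 3511, most of it Car1, and the 4 stem cell markers to 6.53, 1.34, 15.8 and 2.06. Most colonocyte markers did not follow their sum in 2 comparisons. Labelled KO against control under vehicle had 3 called higher and 1 lower (median 1.32), beside 3.53% and 3.27% of all genes. Hemin in labelled KO had 1 higher and 2 lower (median -0.73), beside 4.87% and 8.07%. Most stem cell markers did not follow theirs for labelled KO against control under hemin, where the 3 tested had a median of -0.21. There limma called 1 higher and 0 lower, beside 3.1% and 2.91% of all genes. Limma-voom called 1 higher and 2 lower, beside 5.61% and 5.37%. Examples of other markers were Pyy (labelled KO against control under vehicle, log2 5.63), Muc2 (hemin in labelled KO, -3.32) and Smoc2 (hemin in labelled KO, -3.04). Hoxb13, a homeobox gene of the distal colon, was at 0 in all 6 control libraries and at 104 to 134 FPKM in the labelled KO libraries. It was the 1 gene called higher in labelled KO of the 2 tested markers of colonic region, and is singled out after its values were seen. Of all genes, 3.53% were called higher in labelled KO under vehicle and 3.1% under hemin. The other was not called, and under hemin it lay lower in labelled KO at an unadjusted p under 0.05 by limma. Whether the labelled genotypes came from different regions of the colon is not settled by Hoxb13. The part of cell composition in the results below was not tested, and in these bulk samples fewer cells of a type and less RNA per cell cannot be told apart.

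Classical class I dominated the MHC output of the colonoids in all 4 groups. The summed level of H2-K1 and H2-D1 was 384 ± 20.7 FPKM in control vehicle, 901 ± 149 in control hemin, 393 ± 4.21 in labelled KO vehicle and 955 ± 99.7 in labelled KO hemin (SD, n = 3). The 22 nonclassical genes together gave 68.6 ± 4.49, 159 ± 8.87, 86.1 ± 1.96 and 175 ± 20.8 FPKM in that order. The 11 genes of the class II pathway gave 1.67 ± 0.214, 7.56 ± 0.364, 1.63 ± 0.374 and 3.37 ± 0.341 FPKM. All 3 sums were higher in every hemin library than in every vehicle library of the same labelled genotype. For class II this was 1 gene, H2-DMa: the other 10 together gave 0.568, 0.675, 0.583 and 0.164 FPKM, on 4 to 18 fragments a library, and were lower with hemin in labelled KO. The sums of the class II pathway did not overlap between control hemin and labelled KO hemin, whereas those of classical and nonclassical class I did.

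**Figure D1:**
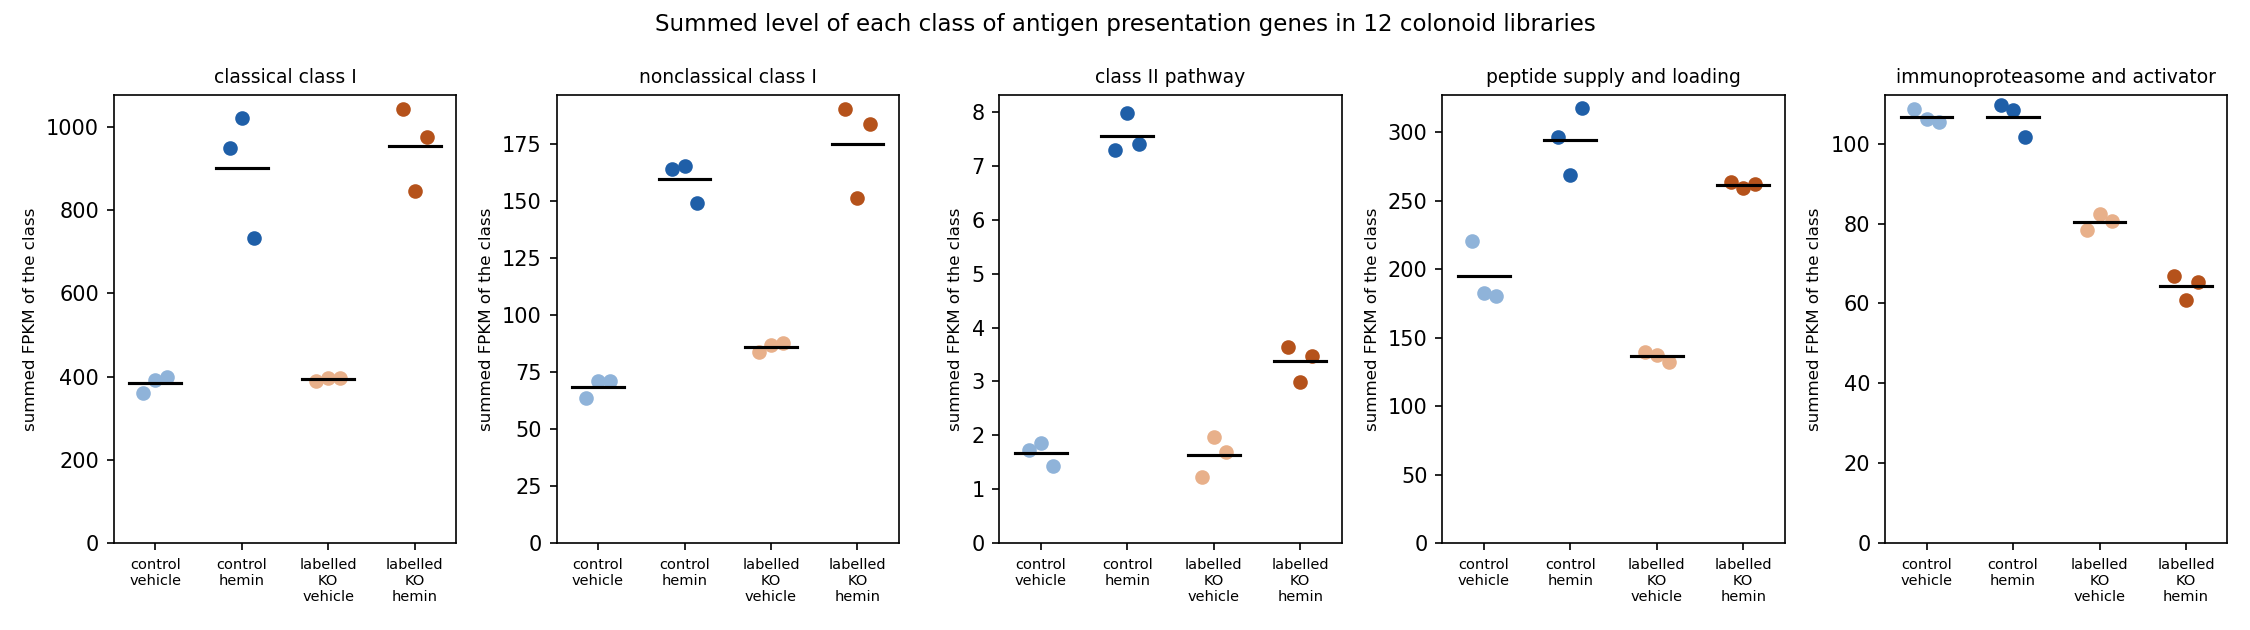
Summed FPKM of the classical class I, nonclassical class I and class II pathway genes and of the processing groups in each library (points), with the mean of 3 libraries (bars), for the 4 groups. Classical class I means lay at 384 and 393 FPKM under vehicle and 901 and 955 under hemin, against 1.67 and 1.63, then 7.56 and 3.37, for class II, most of it H2-DMa.

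Of the 47 genes, 20 passed the filter and were tested: both classical genes, 8 of 22 nonclassical genes, all 5 of peptide supply and loading, 4 of 5 of the immunoproteasome and activator, and 1 of 11 of the class II pathway. The other 27 lay under the filter, and 8 of these had no fragment in any library. A gene that passed only through the group where it is high had to differ, so the counts below describe the tested genes and not the family. The comparisons share libraries: each group enters several of them.

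Hemin in control colonoids raised 7 of the 20 tested genes and lowered 1, where 2.17% of all genes tested were called higher and 5.93% lower. The lower gene, H2-Q10, passed the filter only through control vehicle and had to differ from it. Hemin in labelled KO colonoids raised 7 and lowered 2, where 4.87% of all genes were called higher and 8.07% lower. H2-K1, H2-Q2, H2-T22, H2-T23, Tapbp and H2-DMa were called higher in both. With hemin in control, limma gave 10 higher and 2 lower at an unadjusted p under 0.05, where 26.5% and 29.6% of all genes lay. In labelled KO it gave 10 and 7, where 31.9% and 32.1% lay. Limma-voom called 7 higher and 1 lower in control, beside 4.11% and 10.3% of all genes by limma-voom. In labelled KO it called 8 and 5, beside 7.35% and 13.1%. By genotype label, 1 gene was called higher and 1, again H2-Q10, lower under vehicle, where 3.53% and 3.27% of all genes were called. Under hemin 0 were called higher and 1 lower, where 3.1% and 2.91% of all genes were called. At an unadjusted p under 0.05 the limma test gave 4 of the 20 higher and 6 lower under vehicle, where 22.0% and 20.4% of all genes lay. Under hemin it gave 3 higher and 10 lower, where 24.8% and 18.7% of all genes lay, and limma-voom on the recovered fragments called 0 higher and 5 lower, beside 5.61% and 5.37% of all genes by limma-voom.

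Medians of the tested genes depended on filter and scale. The 19 tested genes of class I and its processing had a median log2 fold change of 0.16 with hemin in control and -0.17 in labelled KO, beside -0.01 and -0.0019 over all genes. Between genotypes their median was -0.09 under vehicle and -0.21 under hemin, beside 0.02 and 0.04 over all genes. Where only a mean FPKM of 5 or more was let in, the hemin medians were 0.69 in control and 0.96 in labelled KO, and under TPM the latter was -0.51. The genes called higher were heavy chains, tapasin and H2-DMa, and of the other tested genes some, such as B2m, had values of the same sign and some of the opposite sign.

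Scaling matters for these calls and medians. Rescaling each library to TPM, which makes all libraries sum alike, moved the all-gene median with hemin to -0.19 in control and -0.31 in labelled KO, and that of labelled KO against control under vehicle to 0.16. A single noncoding gene, Gm23935, took 16.8% of summed FPKM in control vehicle replicate 1, 29.0% in control hemin replicate 1 and 21.0% in labelled KO hemin replicate 2, and 1.18% to 2.81% in the other 9. Under TPM the tested genes called with hemin in labelled KO became 3 higher and 6 lower in place of 7 and 2, while in control they became 6 higher and 1 lower. Leaving Gm23935 out of the sum gave 7 higher and 5 lower in labelled KO and 6 higher and 1 lower in control. Under both of these scalings more of all genes were called with hemin too, by the totals given in the last section. Those totals do not split higher from lower, so these counts alone do not set the tested genes apart from other genes. The factor carried by the deposited values averaged 0.965 in control vehicle, 1.02 in control hemin, 0.924 in labelled KO vehicle and 1.07 in labelled KO hemin, so it raises hemin values against vehicle. Scaling by fragments alone gave an all-gene median with hemin of -0.07 in control and -0.16 in labelled KO, with 6 tested genes higher and 1 lower in control and 5 and 3 in labelled KO. The share of all genes called under this scaling is not given, so these counts describe the tested genes only.

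Classical class I heavy chains carry peptides from the cell interior to CD8 T cells. H2-K1 (ENSMUSG00000061232) measured 204, 220 and 223 FPKM in control vehicle, 602, 657 and 499 in control hemin, 184, 191 and 187 in labelled KO vehicle, and 486, 403 and 455 in labelled KO hemin. Every hemin library lay above every vehicle library, and control hemin lay above labelled KO hemin without overlap. H2-K1 rose with hemin by a log2 fold change of 1.43 in control (limma adjusted p = 1.1e-06, 95% interval 1.21 to 1.66) and 1.25 in labelled KO (1.5e-06, 1.03 to 1.47). The difference between these responses was -0.18 (adjusted p = 0.42), and that between labelled KO and control under hemin was -0.38 (0.014), short of the fold threshold.

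H2-D1 (ENSMUSG00000073411) measured 156, 172 and 176 FPKM in control vehicle, 346, 363 and 234 in control hemin, 205, 205 and 208 in labelled KO vehicle, and 556, 444 and 521 in labelled KO hemin. Here the labelled KO libraries were the higher ones in both treatments, again without overlap, so that H2-K1 exceeded H2-D1 in all 6 control libraries and H2-D1 exceeded H2-K1 in all 6 labelled KO libraries. With hemin, H2-D1 rose in labelled KO (log2 1.29, adjusted p = 2.1e-05) and had a log2 fold change of 0.88 in control (5.3e-04), which was not called. Control hemin replicate 3 was the low library of its group, and without it the control value was 1.07 and called. The interaction of genotype and hemin was 0.41 (adjusted p = 0.19). Under TPM, where the all-gene median with hemin in labelled KO was -0.31, the response there was 0.91 for H2-K1 and 0.95 for H2-D1, and both lost the call.

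Nonclassical class I molecules vary less between individuals and serve narrower tasks. H2-T23 encodes Qa-1, the ligand of NKG2 receptors on natural killer and T cells. Its level was 23.6, 27.4 and 28.0 FPKM in control vehicle, 76.9, 86.9 and 66.5 in control hemin, 36.5, 35.2 and 36.1 in labelled KO vehicle, and 93.3, 71.9 and 91.6 in labelled KO hemin. The vehicle groups did not overlap with each other, the hemin groups did, and hemin libraries lay above all vehicle libraries. H2-T23 rose with hemin by 1.5 in control (adjusted p = 2.1e-06) and 1.22 in labelled KO (5.8e-06), the latter 0.90 and not called under TPM.

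H2-Q2, a gene of the Qa region, measured 19.3, 21.2 and 19.9 FPKM in control vehicle, 58.6, 48.9 and 54.6 in control hemin, 22.9, 24.8 and 25.1 in labelled KO vehicle, and 67.3, 54.8 and 63.9 in labelled KO hemin. The hemin groups overlapped with each other and not with vehicle. The rise was 1.38 in control (adjusted p = 5.3e-07) and 1.31 in labelled KO (3.8e-07). H2-T22, a ligand of some gamma delta T cell receptors, had means of 7.90, 17, 7.82 and 18.9 FPKM in the same order of groups and rose by 1.02 (adjusted p = 4.7e-06) and 1.17 (8.7e-07). The control call of H2-T22 sat at the threshold: it was 0.96, 0.99 and 0.97 without control vehicle replicate 1, control hemin replicate 1 or control hemin replicate 2, and 0.89 in control and 0.91 in labelled KO under TPM. Scaled by fragments alone it was 0.95 and 0.98, called in neither. H2-T24 lay near the filter, at 0.639, 1.02 and 0.834 FPKM in control vehicle and 2.41, 2.67 and 3.57 in control hemin, against 1.01, 0.689 and 1.12, then 1.75, 1.91 and 2.04, in labelled KO. It was called in control (1.08, adjusted p = 5.0e-05; 0.96 and not called without control hemin replicate 3) and measured 0.59 in labelled KO (0.0024), with an interaction of -0.49 (0.078). Limma-voom called it in labelled KO too, at 1.04 (0.0022).

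Other nonclassical genes had a different pattern. H2-M3, which presents peptides that start with formyl-methionine, measured 1.81, 1.42 and 1.42 FPKM in control vehicle, 1.40, 1.59 and 1.49 in control hemin, 3.02, 4.67 and 4.46 in labelled KO vehicle, and 0.435, 0.680 and 0.533 in labelled KO hemin. The control groups overlapped, labelled KO vehicle lay above all other libraries and labelled KO hemin below all others, on 9 to 116 fragments. Hemin lowered H2-M3 in labelled KO (log2 -1.69, adjusted p = 9.8e-07) and left a difference of -0.03 (0.87) in control. The interaction was -1.66 (adjusted p = 9.3e-05), the only one called among the 20, where 2.57% of all genes were called higher and 2.56% lower. At an unadjusted p under 0.05, limma gave 2 interactions above 0 and 7 below, where 19.4% and 16% of all genes lay. 1 of those above 0 was H2-Q10, whose interaction the filter fixed. Limma-voom called 0 above and 3 below, beside 3.44% and 4.11% of all genes. Labelled KO against control was 0.97 (1.5e-04) under vehicle, called at 1.04 and 1.13 without control vehicle replicate 1 or labelled KO vehicle replicate 1, and -0.69 (0.0018) under hemin. With a pseudocount of 0.1, TPM, TPM without Gm23935 or limma-voom the former was called at 1.31, 1.34, 1.27 and 1.35 and the latter at -1.31, -1.03, -1.09 and -1.40.

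H2-Q1 measured 1.06, 1.02 and 1.09 FPKM in control vehicle, 0.919, 1.30 and 0.718 in control hemin, 4.81, 5.50 and 5.17 in labelled KO vehicle, and 2.72, 1.37 and 1.97 in labelled KO hemin. Every labelled KO library lay above every control library. Under vehicle H2-Q1 was called higher in labelled KO (1.58, adjusted p = 1.2e-05), and hemin lowered it there (-1.05, 1.3e-04; -0.89 and not called without labelled KO hemin replicate 2). The interaction was -0.98 (adjusted p = 0.0071), and it was called at -1.0, -1.08, -1.03 and -1.15 without control hemin replicate 1, control hemin replicate 3, labelled KO vehicle replicate 1 or labelled KO hemin replicate 1. It was also called at -1.22 with a pseudocount of 0.1, -1.31 under TPM and -1.34 by limma-voom. H2-Q10, known as a secreted class I molecule made by liver, measured 1.32, 1.25 and 1.42 FPKM in control vehicle and no more than 0.232 in the other 9 libraries. H2-Q10 passed the filter only through control vehicle, so that its differences from that group had to come out lower and say nothing further. They were -1.01 (adjusted p = 1.2e-05) for labelled KO under vehicle and -1.09 (5.7e-06) with hemin in control, both called. The former sat at the threshold, at -0.98, -0.98 and -0.99 without control vehicle replicate 3, labelled KO vehicle replicate 1 or labelled KO vehicle replicate 2. H2-Q4 had means of 7.75, 4.49, 6.79 and 3.75 FPKM, with log2 fold changes with hemin of -0.67 (adjusted p = 4.8e-04) in control and -0.72 (2.0e-04) in labelled KO, neither called. Under TPM the latter was -1.13 and called.

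**Figure D2:**
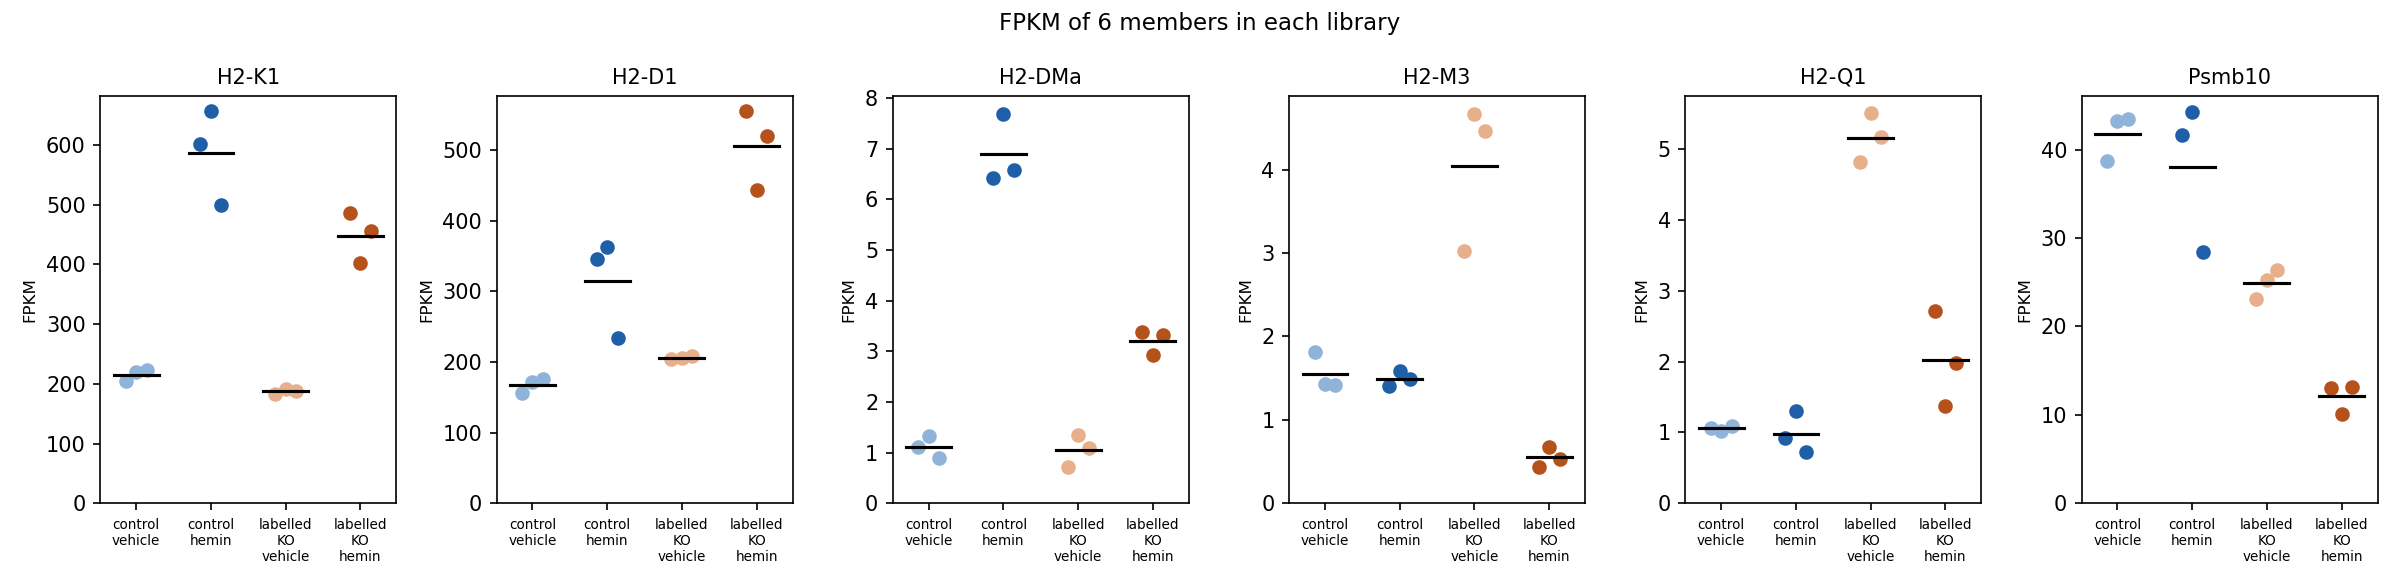
FPKM of H2-K1, H2-D1, H2-DMa, H2-M3, H2-Q1 and Psmb10 in each library (points) with the mean of 3 (bars), by group. H2-K1, H2-D1 and H2-DMa were higher in all hemin libraries than in all vehicle libraries. H2-M3 was highest in labelled KO vehicle (3.02 to 4.67) and lowest in labelled KO hemin (0.435 to 0.680). Psmb10 was lowest in labelled KO hemin.

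Genes of peptide supply and loading did not move as 1 group. Tapbp encodes tapasin, which bridges class I molecules to the Tap transporter. It measured 23.7, 28.5 and 28.4 FPKM in control vehicle, 62.4, 76.2 and 49.6 in control hemin, 26.6, 26.9 and 27.3 in labelled KO vehicle, and 93.2, 79.9 and 92.3 in labelled KO hemin. The vehicle groups overlapped and labelled KO hemin lay above control hemin. Tapbp rose by 1.18 in control (adjusted p = 3.4e-05) and 1.68 in labelled KO (1.4e-06), with an interaction of 0.50 (0.082).

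B2m, the light chain of every class I molecule, measured 182, 140 and 138 FPKM in control vehicle, 220, 178 and 252 in control hemin, 100, 97.7 and 93.1 in labelled KO vehicle, and 160, 170 and 159 in labelled KO hemin. Labelled KO libraries lay below control libraries in both treatments, while hemin and vehicle overlapped in control. The labelled KO difference was -0.64 (adjusted p = 0.0027) under vehicle and -0.39 (0.036) under hemin, and the hemin response was 0.49 (0.0084) in control and 0.74 (4.9e-04) in labelled KO, none of them called. The transporter subunits were low. Tap1 had means of 2.49, 2.26, 2.29 and 1.94 FPKM and overlapped in all comparisons. Tap2 had means of 2.35, 2.74, 2.45 and 1.33, and its labelled KO hemin libraries lay below all others (labelled KO against control under hemin -0.68, adjusted p = 2.6e-04; interaction -0.72, 0.0031). Limma-voom called both, at -1.06 and -1.13, a pseudocount of 0.1 and TPM without Gm23935 the interaction alone, at -1.05 and -1.04, and TPM the hemin response in labelled KO, at -1.02 in place of -0.57. Erap1, the trimming peptidase, had means of 9.72, 10.1, 7.96 and 6.85, with a labelled KO difference under hemin of -0.49 (adjusted p = 0.0040).

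The immunoproteasome replaces catalytic subunits of the standard proteasome. Psmb10 measured 38.7, 43.2 and 43.4 FPKM in control vehicle, 41.6, 44.3 and 28.4 in control hemin, 23.1, 25.3 and 26.3 in labelled KO vehicle, and 13.1, 10.1 and 13.2 in labelled KO hemin. The labelled KO libraries lay below the control libraries in both treatments, and control hemin replicate 3 was the lowest of the control libraries. Psmb10 was the gene called lower in labelled KO under hemin (-1.56, adjusted p = 1.5e-05), with -0.72 (0.0036) under vehicle. With hemin in labelled KO it changed by -0.99 (2.1e-04), just inside the threshold, and was called at -1.04, -1.05 and -1.05 without labelled KO vehicle replicate 1, labelled KO hemin replicate 1 or labelled KO hemin replicate 3. The interaction was -0.84 (adjusted p = 0.017), and -1.03 and called without control hemin replicate 3. Under TPM the hemin value of Psmb10 in labelled KO was -1.36 and called.

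Psmb9 measured 1.14, 1.33 and 1.31 FPKM in control vehicle, 1.63, 0.832 and 0.678 in control hemin, 0.702, 0.664 and 0.747 in labelled KO vehicle, and 0.418, 0.0581 and 0.286 in labelled KO hemin, on 5 to 83 fragments. Psmb9 passed the filter mainly through control vehicle. The labelled KO difference under hemin was -0.69 (adjusted p = 0.0069), and it was called at -1.77 with a pseudocount of 0.1, -1.12 under TPM, -1.25 under TPM without Gm23935 and -2.50 by limma-voom. With hemin in labelled KO it was -0.45, called at -1.35, -1.03, -1.02 and -2.04 in the same order. Psmb8, the remaining catalytic subunit, lay under the filter, with 2 to 14 fragments in the other 9 libraries and 0 in all 3 of labelled KO hemin. Psme1 and Psme2 form the PA28 activator that caps the proteasome. Psme1 had means of 36.6, 36.1, 29.8 and 21.9 FPKM, with a labelled KO difference under hemin of -0.69 (adjusted p = 2.4e-06) and an interaction of -0.41 (0.0028). Psme2 had means of 26.8, 31.1, 24.9 and 30.1 and an interaction of 0.06 (0.81). The group as a whole summed to 107 ± 1.65, 107 ± 4.31, 80.5 ± 1.99 and 64.3 ± 3.13 FPKM (SD, n = 3), where peptide supply and loading summed to 195 ± 22.5, 295 ± 24.5, 137 ± 3.78 and 262 ± 2.10. In control hemin the immunoproteasome sum overlapped with vehicle while the classical class I sum lay above it.

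**Figure D3:**
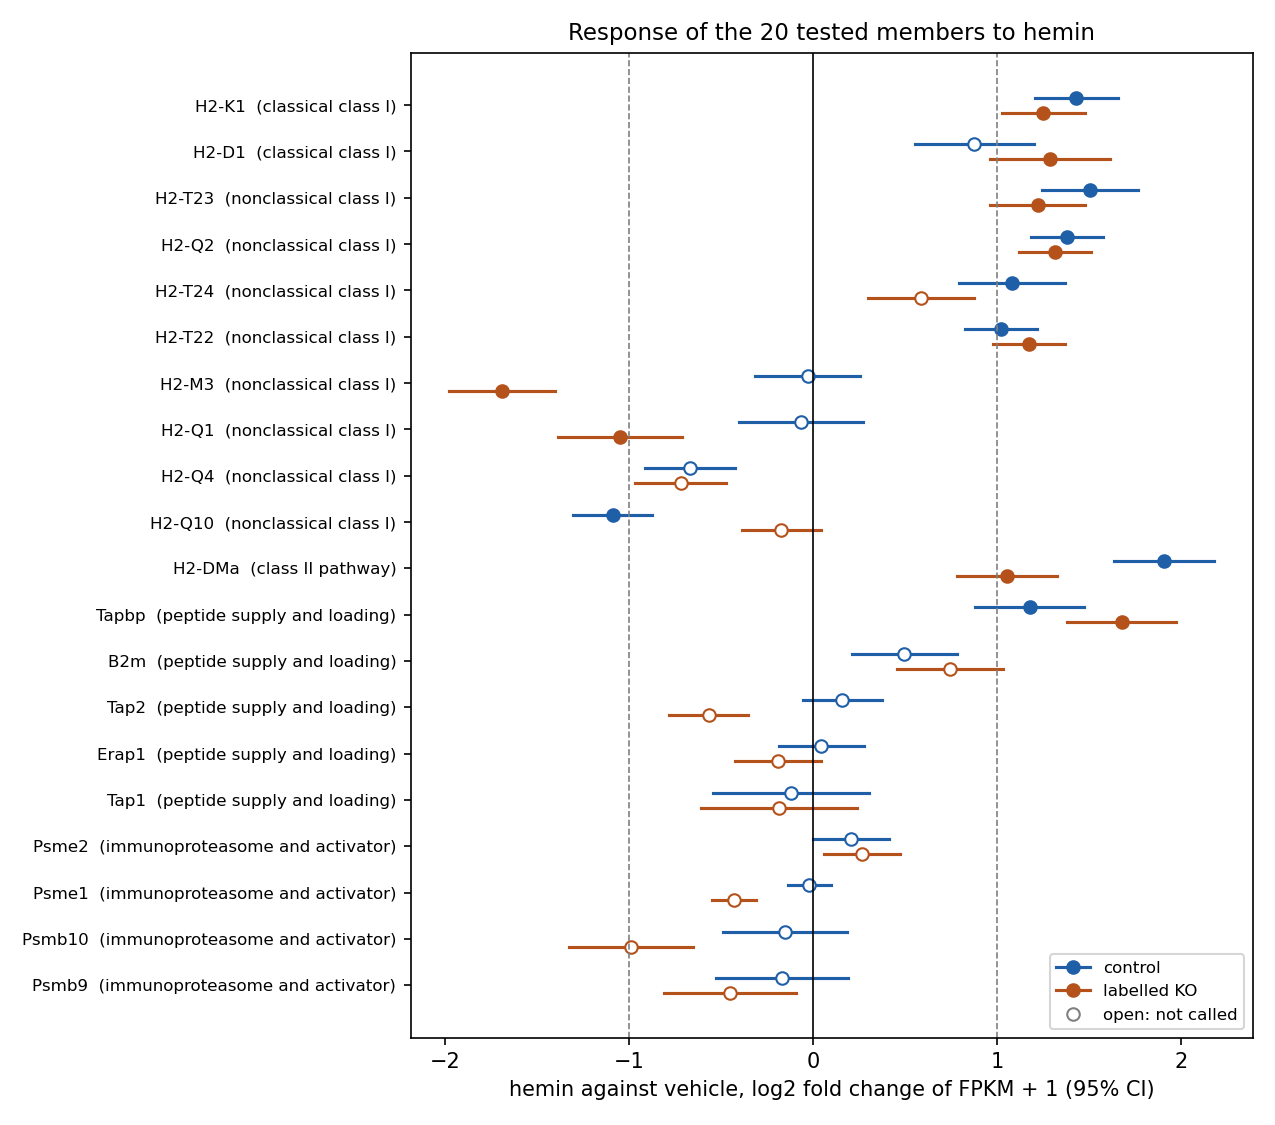
Log2 fold change with hemin of the 20 tested genes in control and labelled KO colonoids, with 95% intervals from limma and open symbols where not called. H2-DMa, H2-T23 and H2-K1 lay furthest to the right in control (1.91, 1.5 and 1.43) and H2-M3 furthest to the left in labelled KO (-1.69).

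The class II pathway was seen almost only through H2-DMa, a chain of the H2-DM molecule that edits peptides on class II. H2-DMa measured 1.11, 1.32 and 0.887 FPKM in control vehicle, 6.41, 7.68 and 6.57 in control hemin, 0.708, 1.34 and 1.09 in labelled KO vehicle, and 3.39, 2.93 and 3.31 in labelled KO hemin, on 19 to 149 fragments. The vehicle groups overlapped, and all labelled KO hemin libraries lay between the vehicle libraries and control hemin. H2-DMa rose by 1.91 in control (adjusted p = 5.4e-07) and 1.05 in labelled KO (2.6e-05; 0.93 and not called without labelled KO vehicle replicate 1, and 0.92 and not called when scaled by fragments alone). The difference between these responses was -0.86 (adjusted p = 0.0047), within the fold threshold but called at -1.04 (0.012) under TPM without Gm23935, and labelled KO against control under hemin was -0.90 (1.9e-04). The latter was called at -1.02 under TPM and -1.12 by limma-voom, so its place relative to the threshold depends on the scale.

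The partner chain and the class II molecules themselves were barely detected. H2-DMb1 had at most 6 fragments in a library, H2-Eb1 at most 5 and H2-Ab1 at most 4. H2-Aa had 1 fragment in 1 library, H2-Oa 2 in 1 library, and H2-DMb2, H2-Eb2 and H2-Ob none. Ciita, the class II transactivator, had at most 8 fragments, and Cd74, the invariant chain, 1 to 12 in the other 9 libraries and 0 in all 3 of labelled KO hemin. Limma-voom over every gene with 10 or more fragments still called some of them. Under hemin, labelled KO against control was -3.36 (adjusted p = 0.0095) for Cd74 and -3.08 (0.0049) for H2-DMb1, and under vehicle it was 2.33 (0.049) for H2-Ab1. With hemin, Cd74 was -3.18 (0.0060) in labelled KO and H2-DMb1 was 2.49 (0.010) in control, with an interaction of -3.93 (0.018) for H2-DMb1. These values rest on the few fragments given above.

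Other genes under the filter still differed in fragments. H2-T3, which encodes the thymus leukemia antigen of intestinal epithelium, had 26 to 54 fragments in the 6 control libraries and 0 to 5 in the 6 of labelled KO. H2-Q7 had 27 to 35 in control vehicle, 16 to 19 in labelled KO vehicle, at most 2 in control hemin and 0 in labelled KO hemin. H2-Q6 had 9 to 22 in control vehicle and at most 6 elsewhere, and H2-M2 had 11 to 16 in labelled KO vehicle and at most 2 elsewhere. Nlrc5, the transactivator of class I genes, had 0 to 3 fragments in 9 libraries and 7, 12 and 10 in labelled KO hemin. H2-M9 had 4 fragments in 1 library. H2-M10.2, H2-M10.4, H2-M10.6, H2-M5 and H2-Ke6 never passed 3, and H2-M1, H2-M10.1, H2-M10.3, H2-M10.5 and H2-M11 had none.

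Genes that act with these pathways were counted from lists. Of 15 interferon signalling genes tested, 2 were called, both higher with hemin in labelled KO, where 4.87% of all genes were called higher: Irf9 (1.34, adjusted p = 3.1e-06) and Stat2 (1.20, 1.1e-06), partners in the factor that carries type I interferon signals. Their means were 3.77, 5.37, 2.76 and 8.59 FPKM for Irf9 and 5.90, 7.54, 3.89 and 10.3 for Stat2. Irf1 had a labelled KO difference of -0.67 under vehicle and -0.66 under hemin, not called. The median of the 15 was 0.27 with hemin in control and 0.54 in labelled KO. In the comparisons where limma called 0, it gave 10 higher and 1 lower at an unadjusted p under 0.05 with hemin in control, 1 and 9 in labelled KO against control under vehicle, 6 and 3 under hemin, and 7 and 2 for the interaction. Among all genes these shares were 26.5% and 29.6%, 22.0% and 20.4%, 24.8% and 18.7%, and 19.4% and 16%. Limma-voom called 1 and 1, 0 and 0, 0 and 0, and 3 and 0 there, beside 4.11% and 10.3%, 5.30% and 4.94%, 5.61% and 5.37%, and 3.44% and 4.11% of all genes.

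Of 6 lysosomal protease and reductase genes tested, which prepare peptides for class II, 1 was called with hemin in control, Lgmn (1.05), and 3 in labelled KO, Ctsd (1.53), Ctsl (1.24) and Ctsb (1.05), where 2.17% and 4.87% of all genes were called higher. Ctsd was the gene of this list with a called interaction (1.07, limma adjusted p = 0.0015), where 2.57% of all genes were called higher. Of 3 class I-like genes tested, Fcgrt, the neonatal Fc receptor, was called lower in labelled KO under vehicle (-1.44) and with hemin in control (-1.15), where 3.27% and 5.93% of all genes were called lower. Of these 3, limma-voom called 1 higher and 1 lower in labelled KO under vehicle, beside 5.30% and 4.94% of all genes. It called 1 lower with hemin in control, 2 with hemin in labelled KO and 1 for the interaction. Beside these, 10.3%, 13.1% and 4.11% of all genes were called lower. None of 4 chaperones of class I loading, 5 standard proteasome subunits and activators, 7 factors of the class II promoter complex or 2 tested costimulatory genes was called by limma in any comparison. With hemin in control, where 26.5% and 29.6% of all genes lay higher and lower at an unadjusted p under 0.05, limma gave 0 higher and 3 lower among the chaperones, 0 and 0 among the proteasome genes, 1 and 3 among the promoter factors and 1 and 1 among the costimulatory genes. With hemin in labelled KO, where 31.9% and 32.1% of all genes lay so, these counts were 0 and 3, 3 and 0, 1 and 3, and 0 and 0. For labelled KO against control they were 0 and 2, 1 and 0, 1 and 0, and 1 and 0 under vehicle (all genes 22.0% and 20.4%), then 0 and 1, 3 and 0, 1 and 0, and 2 and 0 under hemin (all genes 24.8% and 18.7%). For the interaction they were 1 and 0, 3 and 0, 0 and 0, and 1 and 1 (all genes 19.4% and 16%). Limma-voom called 1 costimulatory gene lower with hemin in control and 1 higher in labelled KO under hemin, beside 10.3% and 5.61% of all genes, and 0 genes of the other 3 lists in any of the 5 comparisons.

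Of the 47 genes, 39 lie on chromosome 17 between 33915899 and 37483552 of mm10, a span of 3.57 Mb, and 15 of these were tested. The others are on chromosomes 2 (B2m), 8 (Nlrc5 and Psmb10), 13 (Erap1), 14 (Psme1 and Psme2), 16 (Ciita) and 18 (Cd74). All 47 have an entry in the GENCODE annotation of the same assembly, 36 with the deposited start and end and 11 with another start or end. The span held 81 other protein-coding genes that were tested. With hemin, 2.47% of these neighbours were called higher and 8.64% lower in control, and 6.17% and 12.3% in labelled KO. The neighbours' median log2 fold change was -0.14 in control and -0.09 in labelled KO. The tested genes of the family in the span came to 7 called higher and 1 lower in control, and 7 higher and 2 lower in labelled KO.

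Several of these genes share sequence, and reads from shared stretches could be assigned to either copy. The share of 100-base transcript windows that also occur in another gene was 0.957% for H2-K1, 3.59% for H2-D1, 3.15% for H2-T23, 5.09% for H2-Q2, 8.86% for H2-T22, 8.05% for H2-Q1 and 8.01% for H2-Q10. It was 18.4% for Psme2, whose copy is Psme2b, and 0 for H2-M3, H2-DMa, H2-T24, B2m and Psmb10. Among genes under the filter it was 12% for H2-Q7, 11.3% for H2-DMb1, 10.3% for H2-DMb2, 10.8% for H2-Q6 and 61.6% for H2-Ke6. All genes with such windows are uncertain where counting split the reads, H2-T22, H2-Q1, H2-Q10 and Psme2 most among those tested.

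Promoters of the genes that rose together were searched on both strands, in the 250 bases before the gene start that RefSeq gives, for letters known from class I and class II promoters. CCAAT occurs in 33.8% of 32851 promoters, a pair of GAAA 2 bases apart, as in interferon-stimulated response elements, in 2.98%, GGGANTNCC, as in kappa B sites, in 3.36%, TTCNNNGAA in 7.02% and TGACNNNGC in 10.2%. Of the 6 genes called higher with hemin in both labelled genotypes, H2-DMa and Tapbp have RefSeq windows more than 500 bases from the deposited start and are left out here. Of the other 4, 4 held CCAAT, 2 the GAAA pair, 1 GGGANTNCC, 2 TGACNNNGC and 0 TTCNNNGAA. Of the 17 tested members with a RefSeq window at any distance, 12 held CCAAT, 3 the GAAA pair, 3 GGGANTNCC, 3 TGACNNNGC and 1 TTCNNNGAA. They included B2m for the GAAA pair and H2-Q4 for GGGANTNCC, neither of them called higher. B2m still had higher means with hemin in both labelled genotypes, as had H2-T22 and H2-T23, the other tested members with the GAAA pair. These letters were thus not confined to genes called higher. Whether they go with a rise short of the threshold was not tested. The sequences shown are those of these 4 genes and of H2-D1, the other classical gene, called higher in labelled KO only, from RefSeq on GRCm38.p6, 5′ to 3′ on the gene's strand. They lie at chr17:34000334-34000583 (minus strand, H2-K1), chr17:35262844-35263093 (plus, H2-D1), chr17:36042743-36042992 (minus, H2-T22), chr17:35342057-35342306 (plus, H2-Q2) and chr17:36032702-36032951 (minus, H2-T23). Capitals mark GGGANTNCC or the GAAA pair on either strand, of which H2-Q2 has none, and a match is a description of letters only.
H2-K1: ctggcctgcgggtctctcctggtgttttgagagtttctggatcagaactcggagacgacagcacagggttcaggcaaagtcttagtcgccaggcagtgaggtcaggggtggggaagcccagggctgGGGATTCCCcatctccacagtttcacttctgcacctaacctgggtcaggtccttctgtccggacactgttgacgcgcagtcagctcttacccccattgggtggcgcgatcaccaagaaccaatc
H2-D1: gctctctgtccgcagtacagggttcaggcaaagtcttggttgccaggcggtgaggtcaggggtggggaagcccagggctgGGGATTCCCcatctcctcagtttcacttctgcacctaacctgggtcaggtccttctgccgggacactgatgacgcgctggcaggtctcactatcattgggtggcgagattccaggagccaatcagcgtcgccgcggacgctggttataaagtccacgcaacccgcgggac
H2-T22: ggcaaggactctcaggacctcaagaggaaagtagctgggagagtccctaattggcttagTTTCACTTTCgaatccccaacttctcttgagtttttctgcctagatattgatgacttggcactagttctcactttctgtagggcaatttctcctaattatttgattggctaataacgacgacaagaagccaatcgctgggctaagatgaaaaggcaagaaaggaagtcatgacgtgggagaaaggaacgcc
H2-T23: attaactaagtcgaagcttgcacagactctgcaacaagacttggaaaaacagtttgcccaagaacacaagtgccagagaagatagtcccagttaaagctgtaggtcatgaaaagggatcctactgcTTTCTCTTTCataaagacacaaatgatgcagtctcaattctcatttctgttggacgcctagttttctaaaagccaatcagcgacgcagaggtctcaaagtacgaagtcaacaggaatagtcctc
H2-Q2: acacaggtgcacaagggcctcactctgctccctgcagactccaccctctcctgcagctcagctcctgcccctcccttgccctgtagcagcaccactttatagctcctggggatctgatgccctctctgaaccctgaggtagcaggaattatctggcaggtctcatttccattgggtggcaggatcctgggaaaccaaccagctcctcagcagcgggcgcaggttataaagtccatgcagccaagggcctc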

How the data were processed

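Messenger RNA was captured with poly-T beads and sequenced by Novogene. The submitters' processing notes name fastp, HISAT2 2.0.5, featureCounts 1.5.0-p3 and mm10. The settings for strand and for reads with several matches are not given in the sources used here. The authors deposited 1 FPKM value per gene and library, with each gene's length, an other value used to recover fragments. FPKM times length came out as whole multiples of 1 fragment for 100% of values (tolerance 0.01), at 11648801 to 25101868 fragments a library. The deposited values also carry a scaling between libraries beyond length and depth, of unstated origin: a factor of 0.922 to 1.07. Fewer fragments mean wider counting error for low genes. Between replicates of a group the chi-square of fragments per degree of freedom ran from 1.93 to 43.1, so no library is a copy of another.

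From the FPKM values, limma 3.58.1 (R 4.3.3, with the package data.table at 1.17.8) fitted 4 group means to log2(FPKM + 1) of 12 libraries with a trend in the moderation and 8 residual degrees of freedom, over the 12740 genes that reached an FPKM of 1 in 3 or more libraries. Benjamini-Hochberg adjustment ran over all of them, and called means a log2 fold change beyond 1 in either direction at an adjusted p under 0.05. The 5 comparisons were labelled KO against control under each treatment, hemin against vehicle in each labelled genotype, and their interaction. The fit was tested on simulated data. Every simulated gene had the same spread beyond counting, and no result here rests on that test. Python 3.11.15 with numpy 2.4.6, pandas 2.3.3 and matplotlib 3.10.9 made the sequence counts and figures.

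Every member past the filter is named with values and the others by fragments. Hmox1 is named as the gene that the Cre should delete. Genes of loading chaperones, standard proteasome, lysosomal processing, class II promoter factors, interferon signalling, class I-like molecules, costimulation and cell type markers were counted from lists. The members and lists were chosen with earlier results of these data known. Alternatives were a pseudocount of 0.1, no filter, a mean FPKM of at least 5, TPM, limma-voom on the fragments, the replicate number as a block, no trend, only the groups compared, adjusted p alone and each library left out; TPM without Gm23935, FPKM recomputed from fragments and length alone and limma-voom over every gene with 10 or more fragments were added after seeing the data.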

Additional observations from a re-analysis of the deposited data

Results flagged for a closer look

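H2-M3 responded to hemin differently in the labelled genotypes by limma's test of the difference itself: the interaction was -1.66 on the log2 scale (adjusted p = 9.3e-05). Its FPKM was 1.81, 1.42 and 1.42 in control vehicle, 1.40, 1.59 and 1.49 in control hemin, 3.02, 4.67 and 4.46 in labelled KO vehicle, and 0.435, 0.680 and 0.533 in labelled KO hemin. All 3 labelled KO libraries were lower under hemin, whereas the control groups overlapped. Under vehicle the labelled KO libraries lay above those of control. H2-M3 had 9 to 116 fragments a library. Its interaction was the only one called among the 20 tested genes, where 2.57% of all genes were called higher and 2.56% lower.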

How the results depend on the processing

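Of 1760 checks of a tested gene's log2 fold change under another setting, 1637 kept direction and side of the threshold, 18 lost the call, 65 gained it and 40 changed sign. No filter, a mean FPKM of at least 5, the replicate block, no trend and only the groups compared changed none. With the replicate number as a block, the members called were 2 for labelled KO against control under vehicle, 1 for labelled KO against control under hemin, 8 for hemin in control, 9 for hemin in labelled KO and 1 for the interaction. Same-numbered libraries did not deviate together: the mean correlation of deviations was -0.04 (-0.33 to 0.18), against 0.02 for other numbers, and 2 of 12 libraries were closest to their own number.

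Medians below are log2 fold changes of the tested genes of class I and its processing, or of class II. Calls among all genes are totals of higher and lower unless shares are given, and stand for some comparisons only. A count of members without a count over all genes for the same comparison describes the members alone. Under no filter, a mean FPKM of at least 5 and limma-voom over every gene with 10 or more fragments, the genes tested themselves differ. For the other settings the cause was not tested.

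With a pseudocount of 0.1, 20 members were tested and the calls were 4 (0 higher, 4 lower, against 1 in the report) for labelled KO against control under hemin and 3 (0 higher, 3 lower, against 1 in the report) for the interaction. Class I had a median of -0.38 for labelled KO against control under hemin. Class II had -1.08 for labelled KO against control under hemin, 2.55 for hemin in control and 1.57 for hemin in labelled KO. Over all genes, calls came to 1342 against 766 for labelled KO against control under hemin and 1760 against 1033 for hemin in control.

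With no filter on low values, 39 members were tested and the calls were 2 (0 higher, 2 lower, against 1 in the report) for labelled KO against control under hemin. The median for class I was 0.010 for hemin in control, -0.027 for hemin in labelled KO and -0.058 for the interaction. Class II had -0.053 for labelled KO against control under hemin, 0.0017 for hemin in control, -0.047 for hemin in labelled KO and -0.10 for the interaction.

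With a mean FPKM of at least 5, 12 members were tested and the calls were 0 (0 higher, 0 lower, against 2 in the report) for labelled KO against control under vehicle, 5 (5 higher, 0 lower, against 8 in the report) for hemin in control and 0 (0 higher, 0 lower, against 1 in the report) for the interaction. For class I the median was 0.69 for hemin in control, 0.96 for hemin in labelled KO and -0.058 for the interaction. Calls among all genes were 392 against 866 for labelled KO against control under vehicle, 422 against 766 for labelled KO against control under hemin, 629 against 1033 for hemin in control, 1043 against 1648 for hemin in labelled KO and 334 against 654 for the interaction.

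Under TPM, 20 members were tested and the calls were 4 (0 higher, 4 lower, against 1 in the report) for labelled KO against control under hemin and 3 (1 higher, H2-Q10, and 2 lower, against 1 in the report) for the interaction. Class I had a median of 0.043 for labelled KO against control under vehicle, 0.021 for hemin in control, -0.51 for hemin in labelled KO and -0.33 for the interaction. Class II had -1.02 for labelled KO against control under hemin, 2.15 for hemin in control and -1.05 for the interaction. All genes together gave 1705 against 1033 for hemin in control and 2737 against 1648 for hemin in labelled KO. For labelled KO against control under hemin and for the interaction no count over all genes is given under TPM.

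Under TPM without Gm23935, 20 members were tested and the calls were 4 (0 higher, 4 lower, against 1 in the report) for labelled KO against control under hemin and 5 (1 higher, H2-Q10, and 4 lower, against 1 in the report) for the interaction. The median for class I was -0.42 for hemin in labelled KO and -0.30 for the interaction. Class II had -1.07 for labelled KO against control under hemin, 2.25 for hemin in control and -1.04 for the interaction. Over all genes, calls came to 1606 against 1033 for hemin in control and 2475 against 1648 for hemin in labelled KO.

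Scaled by fragments alone, the interaction had 2 members called (0 higher, 2 lower, against 1 in the report) and a median of -0.31 for class I. No count over all genes is given for this setting, so the 2 calls describe the members alone.

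With limma-voom on the same genes, 20 members were tested and the calls were 5 (0 higher, 5 lower, against 1 in the report) for labelled KO against control under hemin and 3 (0 higher, 3 lower, against 1 in the report) for the interaction. For class I the median was -0.38 for labelled KO against control under hemin. Class II had -1.12 for labelled KO against control under hemin, 2.62 for hemin in control and 1.62 for hemin in labelled KO. Calls among all genes were 1304 against 866 for labelled KO against control under vehicle, 1399 against 766 for labelled KO against control under hemin, 1830 against 1033 for hemin in control and 2605 against 1648 for hemin in labelled KO.

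With limma-voom over every gene with 10 or more fragments, 32 members were tested and the calls were 7 (4 higher, 3 lower, against 2 in the report) for labelled KO against control under vehicle, 10 (1 higher, 9 lower, against 1 in the report) for labelled KO against control under hemin, 18 (9 higher, 9 lower, against 9 in the report) for hemin in labelled KO and 6 (0 higher, 6 lower, against 1 in the report) for the interaction. Class I had a median of -0.55 for labelled KO against control under hemin, 0.047 for hemin in control, -0.45 for hemin in labelled KO and -0.31 for the interaction. Class II had 0.46 for labelled KO against control under vehicle, -1.20 for labelled KO against control under hemin, 1.48 for hemin in control, -1.47 for hemin in labelled KO and -2.46 for the interaction. Of 20117 genes, 2450 (6.84% higher, 5.33% lower) were called for labelled KO against control under vehicle and 2207 (5.02%, 5.96%) under hemin. Calls were 2774 (4.53%, 9.26%) for hemin in control, 4187 (6.39%, 14.4%) in labelled KO and 1369 (2.56%, 4.24%) for the interaction.

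By adjusted p alone, 20 members were tested and the calls were 8 (4 higher, 4 lower, against 2 in the report) for labelled KO against control under vehicle, 13 (3 higher, 10 lower, against 1 in the report) for labelled KO against control under hemin, 17 (10 higher, 7 lower, against 9 in the report) for hemin in labelled KO and 7 (1 higher, 6 lower, against 1 in the report) for the interaction. Over all genes, calls came to 4362 against 866 for labelled KO against control under vehicle, 4383 against 766 for labelled KO against control under hemin, 6359 against 1033 for hemin in control, 7694 against 1648 for hemin in labelled KO and 3031 against 654 for the interaction.

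A mean FPKM of at least 5 left no class II gene and no median. Some uncalled values changed sign. Under TPM, for labelled KO against control under vehicle they were Psme2 0.043, H2-T22 0.13, H2-DMa 0.034 and Tap1 0.019. Also under TPM, they were Erap1 -0.14 for hemin in control, Psme2 -0.066 for hemin in labelled KO and Psme2 -0.087 for the interaction. Under TPM without Gm23935, H2-T22 0.052 for labelled KO against control under vehicle, Erap1 -0.057 for hemin in control and Psme2 -0.058 for the interaction. Scaled by fragments alone, H2-T22 0.047 for labelled KO against control under vehicle, Erap1 -0.021 for hemin in control and Psme2 -0.074 for the interaction. Under both TPM scalings and with fragments alone labelled KO against control under vehicle had 2 members called higher and 1 lower.

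Without 1 library, members called ranged from 1 to 3 for labelled KO against control under vehicle, 7 to 8 for hemin in control, 1 to 3 for the interaction, 1 throughout for labelled KO against control under hemin and 8 to 10 for hemin in labelled KO. The median of class I then ran from -0.12 to -0.021 for labelled KO against control under vehicle, 0.11 to 0.22 for hemin in control and -0.19 to 2.9e-05 for hemin in labelled KO. Uncalled values that crossed 0 are given as ranges: for hemin in control they were -0.064 to 0.14 for Erap1, -0.068 to 0.042 for H2-M3, -0.18 to 0.030 for H2-Q1, -0.27 to 0.040 for Psmb10, -0.048 to 0.015 for Psme1 and -0.24 to 0.082 for Tap1. For labelled KO against control under vehicle they were -0.15 to 0.075 for H2-DMa, -0.069 to 0.056 for H2-T22, -0.037 to 0.093 for Tap2 and -0.076 to 0.051 for Tapbp. For the interaction they were -0.13 to 0.021 for H2-Q2, -0.14 to 0.046 for H2-Q4, -0.024 to 0.14 for Psme2 and -0.27 to 0.12 for Tap1. For labelled KO against control under hemin they were -0.12 to 0.043 for Psme2 and -0.35 to 0.032 for Tap1. For hemin in labelled KO they were -0.33 to 2.9e-05 for Tap1.

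Depth limits the class II genes other than H2-DMa, with at most 12 fragments a library. Each group holds 3 libraries of unstated independence, the comparisons share libraries, and the labelled genotypes differ in Hoxb13 and in epithelial subtype markers. How reads shared between H2 genes were counted is not given in the sources used here. Protein and surface levels were not measured in these files.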
